A study of Homo sapiens with 12 samples.

Results

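Solute carriers are membrane proteins that move sugars, amino acids, ions, metals, vitamins and metabolites across the plasma membrane and the membranes of organelles. Their genes are numbered by family, and members of a family mostly share a kind of substrate. In myeloid cells these proteins bring in fuel and amino acids, hold the pH of the cytosol and of vesicles, and distribute zinc, copper and iron. The genes considered here were all those with a regular solute carrier symbol, other than SLC29A1 and SLC29A2, whose most abundant transcript had a mean of at least 20 normalized reads over the 12 libraries. That rule kept 124 of 361 such symbols, out of 44786 gene symbols in the table. The members were thus chosen by their mean level over all libraries together, so a gene high in only some treated groups could enter through them. SLC10A3, SLC16A5 and SLC16A9 were the nearest members inside the limit, with means of 25.3, 23.6 and 22.7, and SLC4A11, SLC12A2 and SLC2A14 were the nearest outside it, with 19.6, 17.7 and 17.6.

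The cells were U937, a human line of myelomonocytic acute myeloid leukemia. The 4 groups, with 3 libraries each, were untreated cells, cells given 200 nM decitabine (DAC), cells given 1 µM all-trans retinoic acid (ATRA), and cells given both agents. DAC enters DNA in place of deoxycytidine and there holds and depletes DNA methyltransferases, while ATRA binds and activates nuclear retinoic acid receptors. By the labels, treatment ran for 3 days with fresh medium and DAC daily, treated cells were taken at 72 h and untreated cells at 96 h, and the medium held 20% FCS and 5 ng/ml GM-CSF. By the labels, each comparison with untreated cells thus also differs in time in culture, which cannot be told apart from treatment. The study's methods instead give a single harvest time, a lower share of FCS and no GM-CSF, and place ATRA with the last DAC dose, so these conditions and the length of ATRA exposure are uncertain. The series text calls the 3 libraries of a group technical triplicates, so each p-value measures the spread between these libraries, which may be technical. The model is a single cell line.

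Each library held 8042435 to 10683593 counted reads, and 3 reads equalled 2.50 to 3.71 normalized reads. The chi-square of read counts between libraries of the same group was 2.05 to 8.19 times its degrees of freedom, so none agreed within sampling noise. Of 9 myeloid markers, MPO fell from a mean of 52120 normalized reads in untreated cells to 14973 with DAC + ATRA, ITGAM rose from 202 to 2725, and CD33 was at 846 and 760.1. PTPRC was listed at 0 in every library and CD14 reached 2.47 at most. These are values of single transcripts, and a 0 for them does not show that the gene was silent. In such bulk samples, fewer cells of a type and less RNA per cell cannot be told apart. The 14 markers of other cell types summed to 288 to 305 in untreated libraries, 3129 to 3153 with DAC, 528 to 713 with ATRA and 4278 to 4673 with both agents. PECAM1, CD79A and COL1A1 made up most of that sum, HBB was at 0 throughout, and 9 of the 14 were at 0 in untreated cells. PECAM1 alone had means of 2373 with DAC and 2980 with both agents. Whether these transcripts reflect cells of another type was not tested, nor was their part in the carrier results.

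The table is by transcript, and this limits what a carrier's value stands for. Of the 124 transcripts, 90 were annotated as protein-coding, 16 as retained introns, 6 as transcripts without a defined coding sequence and 5 as targets of nonsense-mediated decay. For 62 of them, fewer than 50% of their bases lay outside other transcripts on the same strand. These included SLC29A3 (0.13%), SLC16A10 (0.32%), SLC6A9 (0.62%), SLC37A4 (5.7%) and SLC38A2 (6.1%), which are described below. SLC25A6, which encodes an ADP/ATP carrier, was listed at 0 in all 6 of its transcripts. SLC2A1, the common glucose transporter, reached a mean of 17.4 and was not included, nor was SLC2A3 at 9.60 or the lactate carrier SLC16A1 at 2.95. A value below is therefore that of 1 transcript and not of the whole gene. How reads shared by overlapping transcripts were counted is not given, so a low or 0 value does not show that a gene was silent.

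Over the 124 members together, more carriers were called with DAC than with ATRA and most with the combination, the same order as among all tested transcripts. Adjusted p-values are from limma with Benjamini-Hochberg adjustment over all 19373 transcripts tested, and a change was called at an adjusted p under 0.01. With DAC, 63 of the 124 were called, 44 higher and 19 lower than in untreated cells, where 33.5% of all tested transcripts were called (22.2% higher, 11.3% lower). With ATRA, 21 were called, 15 higher and 6 lower, against a background of 6.97% (5.11% higher, 1.87% lower). With DAC + ATRA, 76 were called, 49 higher and 27 lower, against 41.6% (25.5% higher, 16.1% lower). Members are well expressed, and among the 11726 tested transcripts with a mean of at least 20 the backgrounds were 39.9%, 9.57% and 47.8%. An untreated mean under 20 was seen for 13 members, which could enter only because another group was high, and 12 of these were called higher with DAC + ATRA. They were SLC2A12, SLC5A4, SLC37A1, SLC9A7, SLC24A4, SLC12A4, SLC12A7, SLC17A7, SLC6A9, SLC43A2, SLC25A45, SLC27A1 and SLC41A2, so their rises partly follow from the rule. Among the other 111 members, 53, 14 and 64 were called.

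DAC gave the 124 members a median log2 fold change of 0.17, ATRA one of -0.00 and the combination one of 0.19, beside medians over all tested transcripts of 0.05, 0.00 and 0.05. Scaling by library size moved the median of all transcripts to -0.07 for DAC, -0.06 for ATRA and -0.09 for DAC + ATRA, that of the members to 0.0467, -0.0733 and 0.0384, and the split of called members to 35 higher and 25 lower, 14 and 9, and 38 and 35. The share of higher calls thus depended on the scaling, while the called members named below kept their direction under each scaling. In all, 39 members were called with none of the 3 treatments, 8 were higher in all 3 and 3 were lower in all 3, beside 52.3%, 3.24% and 0.604% of all tested transcripts. With DAC + ATRA 14 members were called that were called with neither agent alone, 4 of them higher and 10 lower, beside 4.99% and 6.72% of all tested transcripts. A call missed with a single agent does not show that the agent had no effect on them.

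By substrate, called changes went both ways in every class with DAC + ATRA, and the counts below stand beside 25.5% of all tested transcripts higher and 16.1% lower. The 12 sugar and polyol carriers had a median log2 fold change of 0.74 with DAC, 0.25 with ATRA and 1.43 with both agents, and the combination raised 9 and lowered 1. Without SLC2A12, SLC5A4 and SLC37A1, which had an untreated mean under 20, the medians of the other 9 were 0.43, 0.22 and 0.92, with 6 higher and 1 lower. The 18 carriers of inorganic ions and protons had medians of 0.71, 0.43 and 1.17, and the combination raised 12 and lowered 2. Without the 4 of them with an untreated mean under 20, SLC9A7, SLC24A4 and SLC12A4 among them, the medians of the other 14 were 0.65, 0.30 and 0.71, with 8 higher and 2 lower. For the 12 nucleotide sugar carriers the medians were 0.43, 0.08 and 0.36, with 6 higher and 1 lower. The 12 carriers of vitamins, choline and organic ions had medians of 0.01, 0.05 and 0.04, with 4 higher and 4 lower. For the 11 carriers of carboxylates and lipids they were 0.18, -0.25 and 0.09, with 3 higher and 2 lower. The 16 metal and heme carriers had medians of 0.03, -0.13 and -0.16, with 4 higher and 5 lower. For the 26 mitochondrial carriers the values were -0.09, -0.10 and -0.23, with 5 higher and 6 lower. The 17 amino acid and peptide carriers had medians of -0.00, -0.07 and -0.28, with 6 higher and 6 lower. Leaving out members with a mean under 20 in any group, a choice made after seeing the data, gave amino acid carriers 4 higher and 6 lower with a median of -0.47, metal carriers 3 and 5 with -0.33, carboxylate and lipid carriers 2 and 2 with 0.04, and carriers of vitamins, choline and organic ions 3 and 4 with 0.03. Among the tested transcripts with a mean of at least 20, 27.7% were higher and 20.1% lower with DAC + ATRA. Shares of higher calls near the background included 4 of 16 metal, 3 of 11 carboxylate and lipid and 5 of 26 mitochondrial carriers. The 6 of 26 mitochondrial and 2 of 11 carboxylate and lipid carriers that were lower were also near it. The classes were not tested against each other or against the background.

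**Figure D1:**
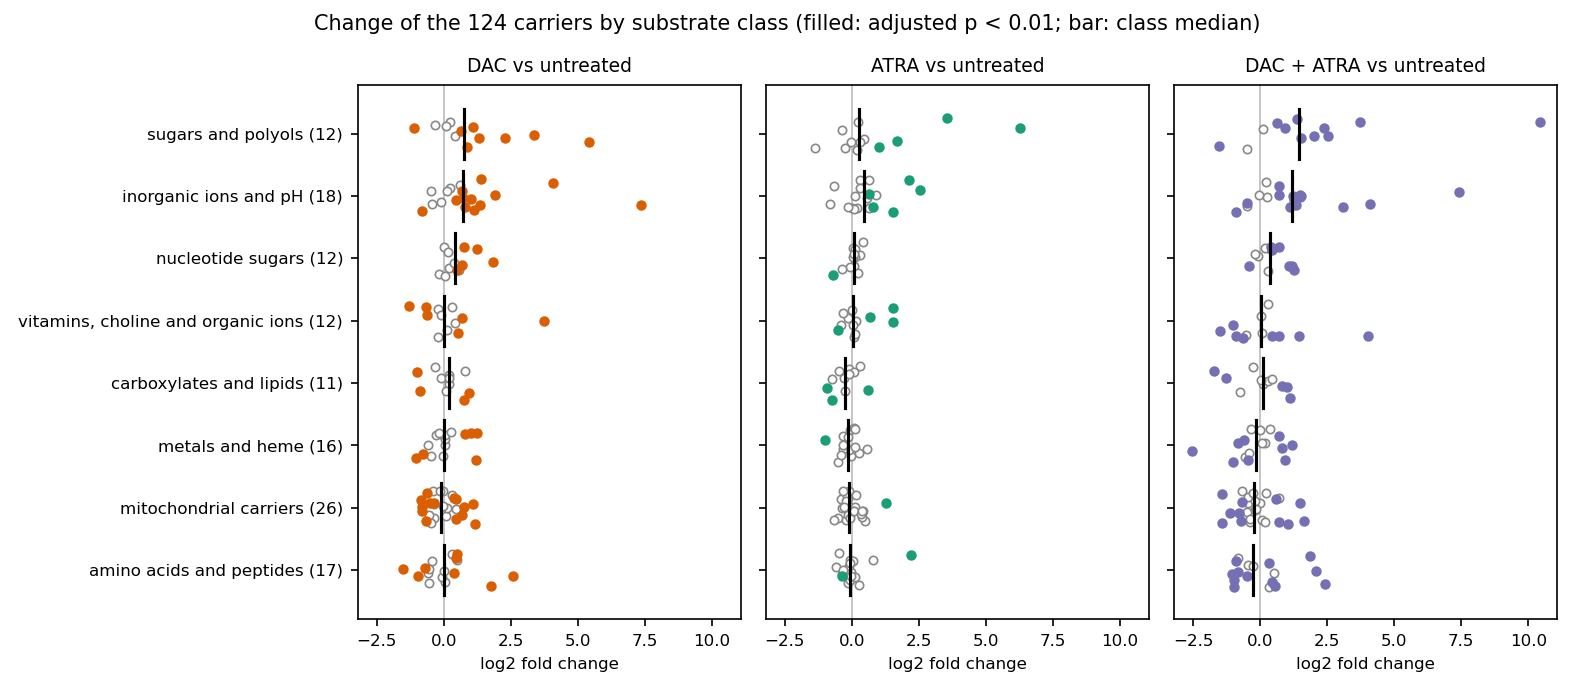
Log2 fold change of each of the 124 carriers against untreated cells (horizontal axis) by substrate class (vertical axis, number of carriers in brackets), for DAC, ATRA and DAC + ATRA. Filled points had an adjusted p under 0.01, open points did not, and black bars are class medians. The median of the sugar and polyol carriers lies at 1.43 with DAC + ATRA, and SLC2A12 is the point at 10.42.

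Among the sugar carriers, 2 members of the facilitative glucose transporter family rose the most with ATRA. SLC2A5 encodes GLUT5, the fructose transporter. Its normalized reads were 2350.1, 2206 and 2050.2 in untreated cells, 4659, 4913 and 4489.9 with DAC, 28361, 28039.6 and 21921 with ATRA, and 27770.4, 30844 and 29565 with both agents. Every ATRA-treated library lay above every library without ATRA, and the ATRA and DAC + ATRA libraries overlapped. SLC2A5 rose 11.9-fold with ATRA, with a log2 fold change of 3.56 ± 0.0948 (SE) and an adjusted p of 2.07e-19. With DAC it rose by 1.09 on the log2 scale (adjusted p = 5.48e-10), and adding DAC to ATRA gave a difference of 0.18 (adjusted p = 0.137).

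SLC2A12 encodes GLUT12, a glucose transporter of the same family. In untreated cells it had 6.43, 1.82 and 4.62 normalized reads, from 14 reads in all. It reached 146, 321 and 194 with DAC, 472, 347 and 330.4 with ATRA, and 5992, 7254 and 6958 with both agents. No group overlapped untreated cells, and the combination libraries were all at least 5992 while no single-agent library passed 472. The ratio to untreated cells was 52.1 for DAC (95% counting interval 30.9 to 95.9), 88.1 for ATRA (52.3 to 162) and 1561 for the combination (930.0 to 2855). These exact intervals cover counting error only. DAC + ATRA exceeded DAC by 5.00 ± 0.357 on the log2 scale (SE, adjusted p = 2.74e-06) and ATRA by 4.15 ± 0.357 (adjusted p = 3.1e-06). The interaction, which is 0 where the log2 changes of the single agents add up, was -1.27 ± 0.504 and was not called (adjusted p = 0.268).

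The 250 bases before the RefSeq start of both genes on GRCh38.p14 are printed here because the transcripts counted begin at that start. The series compares a drug that acts through DNA methylation with one that acts through a receptor, and methylation itself was not measured in these files. These genes and the 3 whose windows are given further on were chosen after their values were seen, and all 5 rose with DAC. Capitals mark CpG dinucleotides, and each sequence reads 5′ to 3′ on the gene's strand.
SLC2A5 (chr1:9069636-9069885, strand -): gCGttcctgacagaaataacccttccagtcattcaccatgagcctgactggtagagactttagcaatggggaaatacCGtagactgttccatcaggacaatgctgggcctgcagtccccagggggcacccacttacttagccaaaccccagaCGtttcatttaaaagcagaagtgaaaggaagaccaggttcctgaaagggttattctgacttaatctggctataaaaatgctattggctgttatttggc
SLC2A12 (chr6:134052625-134052874, strand -): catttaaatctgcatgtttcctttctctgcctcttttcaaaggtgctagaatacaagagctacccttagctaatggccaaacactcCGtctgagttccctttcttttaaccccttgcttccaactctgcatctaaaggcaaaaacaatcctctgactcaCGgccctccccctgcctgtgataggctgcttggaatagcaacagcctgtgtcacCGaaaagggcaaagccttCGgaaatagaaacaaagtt
They hold 3 and 4 CpGs. Over 27305 RefSeq promoter windows of this length the median was 11 (interquartile range 3 to 23), and over the 104 members that matched a window it was 21.5 (12 to 28). The SLC2A5 transcript runs over chr1:9035106-9069635 in 12 exons and that of SLC2A12 over chr6:133987581-134052624 in 5 exons.

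SLC5A3, which encodes the sodium-coupled myo-inositol transporter, was higher in both groups with ATRA. Its normalized reads were 1149.8, 1009 and 1046 in untreated cells, 1103, 1247 and 1079 with DAC, 3859.6, 2980.3 and 3466 with ATRA, and 2919, 3001 and 3183 with both agents. The groups with ATRA did not overlap those without. It rose 3.22-fold with ATRA (log2 fold change 1.68 ± 0.104, adjusted p = 4.01e-12), and the change with DAC was 0.10 (adjusted p = 0.473).

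SLC45A3 and SLC45A4 belong to a family related to plant sucrose transporters. SLC45A3, also called prostein, had 97.4, 114 and 97.0 normalized reads in untreated cells, 957, 961 and 1292 with DAC, 95, 85.6 and 58.3 with ATRA, and 532, 691 and 581 with both agents. Libraries with DAC were far above those without, and those with both agents lay below DAC alone. The log2 fold change was 3.36 ± 0.162 with DAC (adjusted p = 5.99e-15) and -0.82 ± 0.162 for DAC + ATRA against DAC (adjusted p = 0.000631). Without DAC library 6 the latter was -0.68 and was no longer called (adjusted p = 0.0105).

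For SLC45A4 the order differed. It had 172, 171 and 163 normalized reads in untreated cells, 270.2, 269.9 and 243 with DAC, 175, 162 and 162 with ATRA, and 683, 669 and 678 with both agents. The untreated and ATRA libraries overlapped, the DAC libraries lay above both, and those with both agents above all others. The log2 fold change was 0.62 with DAC (adjusted p = 9.06e-05), -0.02 with ATRA (adjusted p = 0.961) and 2.00 with the combination (adjusted p = 1.7e-13). Its interaction of 1.39 ± 0.164 (adjusted p = 4.84e-06) was the only positive one called among the carriers. Only 6.8% of its bases lie outside other annotated transcripts.

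Other sugar carriers were less abundant. SLC5A4, a member of the sodium-glucose family, rose with DAC from 13.8, 15.5 and 13.9 to 78.9, 70.1 and 72.7, with a log2 fold change of 2.29 (adjusted p = 0.000259). SLC37A1, a sugar phosphate exchanger, rose by 1.30 with DAC and 1.36 with both. Its rise of 1.00 with ATRA (adjusted p = 0.00595) was lost without untreated library 2 or 3 or ATRA library 7 or 8 (adjusted p up to 0.0436) and with edgeR (adjusted p = 0.0101), scaling by library size (adjusted p = 0.0103) and DESeq2 (adjusted p = 0.0232). SLC37A4, the glucose 6-phosphate translocase of the endoplasmic reticulum, was the only sugar carrier that fell with DAC or with the combination. Its retained-intron transcript went from 125, 108 and 144 to 62.7, 60.4 and 48.8 with DAC and 43.4, 36.8 and 47.0 with DAC + ATRA, a log2 fold change of -1.54 ± 0.173 (adjusted p = 3.47e-08).

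**Figure D2:**
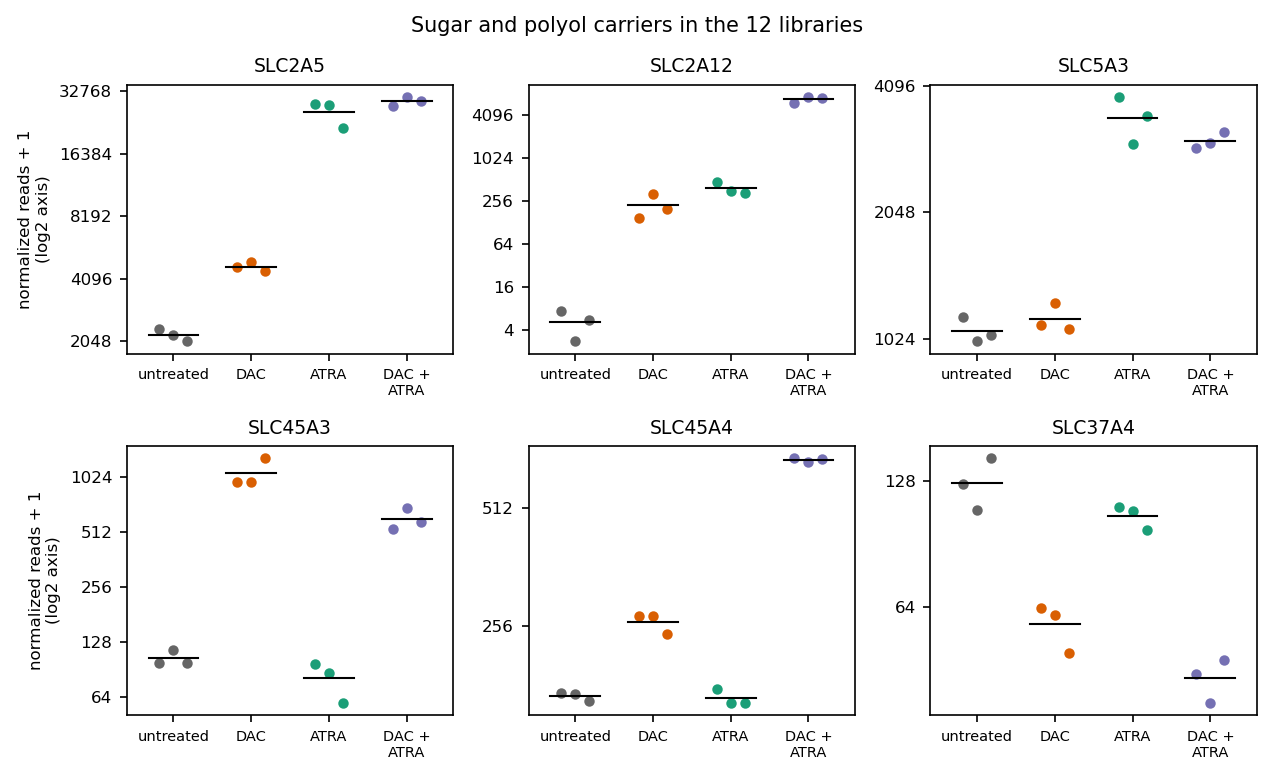
Normalized reads plus 1 (vertical axis, log2 scale) of 6 sugar and polyol carriers in the 12 libraries by group (horizontal axis). Points are libraries and bars group means. SLC2A5 and SLC5A3 are high in both groups with ATRA, SLC45A3 in both with DAC, and SLC2A12 and SLC45A4 reach their highest levels, with means of 6735 and 677, in the group with both agents.

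Of the 18 carriers of ions and protons, 11 were higher after DAC and 1 lower, where 22.2% of all tested transcripts were higher and 11.3% lower, and among the 14 with a mean of at least 20 in each group 8 were higher and 1 lower. The largest change among them was that of SLC9A7, a sodium/proton exchanger of the trans-Golgi network. It had 1.84, 1.82 and 2.77 normalized reads in untreated cells, from 2 or 3 reads per library. It reached 430.2, 631 and 480.1 with DAC, 9.50, 17.3 and 11.7 with ATRA, and 486, 556 and 569.7 with both agents. ATRA libraries lay above untreated ones and far below those with DAC, and DAC and DAC + ATRA overlapped. The ratio to untreated cells was 241 with DAC (95% counting interval 117 to 602) and 6.04 with ATRA (2.69 to 15.9). The log2 changes were 7.35 ± 0.212 (adjusted p = 1.48e-19) and 2.11 ± 0.212 (adjusted p = 3.73e-08), and the interaction was -2.03 ± 0.300 (adjusted p = 0.000104).

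SLC24A4, a potassium-dependent sodium/calcium exchanger, was close to undetected without DAC. It had 1.84, 2.73 and 1.85 normalized reads in untreated cells and 1.06, 0 and 1.66 with ATRA. With DAC it had 49.7, 47.7 and 58.8, and with both agents 47.0, 52.6 and 55.6. The 2 groups with DAC overlapped, and both stood above all other libraries. The ratio of DAC to untreated cells was 24.3 (95% counting interval 11.5 to 61.5), with a log2 fold change of 4.09 ± 0.364 (adjusted p = 8.72e-10).

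SLC8A1, the sodium/calcium exchanger NCX1, rose with each agent and further with both. Its values were 136, 163 and 142 in untreated cells, 510.2, 693 and 494 with DAC, 299, 248 and 226 with ATRA, and 1161, 1297 and 1356 with both agents. No 2 of the 4 groups overlapped. The log2 fold changes were 1.92 with DAC (adjusted p = 1.46e-11), 0.80 with ATRA (adjusted p = 0.000145) and 3.10 with both (adjusted p = 6.33e-16), and the interaction of 0.38 was not called (adjusted p = 0.377). All of its bases are shared with other annotated transcripts.

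SLC12A4, a potassium/chloride cotransporter, rose with ATRA, from 11.9, 13.7 and 21.2 to 86.6, 93.8 and 96.5 in a retained-intron transcript, and was lower with both agents at 36.2, 47.4 and 23.5. The difference between DAC + ATRA and ATRA was -1.40 ± 0.268 for it (adjusted p = 0.00014), and its rise of 1.13 over untreated cells with both agents was lost without DAC + ATRA library 11 (log2 fold change 0.90, adjusted p = 0.0140). SLC26A4, the anion exchanger pendrin, rose by 1.53 with ATRA and 1.5 with both. SLC9B2, a sodium/proton exchanger, fell with DAC from 58.8, 62.8 and 59.1 to 34.6, 33.1 and 32.9 (log2 fold change -0.83, adjusted p = 0.00159). SLC26A2, a sulfate transporter and the class's most counted member, differed by 0.23 at most and was not called.

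In the class of vitamins, choline and organic ions, SLC17A7, a vesicular glutamate transporter with an untreated mean under 20, rose with DAC. It had 13.8, 27.3 and 16.6 normalized reads in untreated cells, 248, 248 and 281 with DAC, 53.9, 49.2 and 65.8 with ATRA, and 305, 321 and 315 with both agents. Every treated group lay above untreated cells, and ATRA alone well below the groups with DAC. The log2 fold change was 3.74 ± 0.190 with DAC (adjusted p = 1.54e-14) and 1.55 ± 0.190 with ATRA (adjusted p = 1.06e-06). Its interaction of -1.27 (adjusted p = 0.00593) was lost in 9 of the 12 fits that left out a library, which gave values from -1.54 to -1.07 and adjusted p-values up to 0.0278. The fits that kept the call left out untreated library 2 or ATRA library 8 or 9. It was also lost with scaling by library size (adjusted p = 0.0153), a pseudocount of 0.1 (adjusted p = 0.0110) and edgeR without DAC library 6 (adjusted p = 0.0153).

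The windows before SLC9A7, SLC45A3 and SLC17A7, whose counted transcripts also begin at the RefSeq start, are given because their levels with DAC lay far above untreated cells. They hold 37, 19 and 17 CpGs. The window of SLC5A4, which also rose with DAC and whose transcript begins at that start, holds 3.
SLC9A7 (chrX:46759119-46759368, strand -): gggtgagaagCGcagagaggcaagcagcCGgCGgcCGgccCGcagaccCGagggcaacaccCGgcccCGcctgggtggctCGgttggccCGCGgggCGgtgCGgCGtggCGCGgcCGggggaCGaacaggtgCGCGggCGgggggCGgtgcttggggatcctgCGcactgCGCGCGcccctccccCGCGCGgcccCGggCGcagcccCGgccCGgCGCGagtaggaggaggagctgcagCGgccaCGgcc
SLC45A3 (chr1:205680510-205680759, strand -): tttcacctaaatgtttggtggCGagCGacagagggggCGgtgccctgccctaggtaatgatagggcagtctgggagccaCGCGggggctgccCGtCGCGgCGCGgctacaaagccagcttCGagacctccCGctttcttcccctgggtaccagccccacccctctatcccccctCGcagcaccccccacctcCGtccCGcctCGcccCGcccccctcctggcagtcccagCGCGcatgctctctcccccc
SLC17A7 (chr19:49441528-49441777, strand -): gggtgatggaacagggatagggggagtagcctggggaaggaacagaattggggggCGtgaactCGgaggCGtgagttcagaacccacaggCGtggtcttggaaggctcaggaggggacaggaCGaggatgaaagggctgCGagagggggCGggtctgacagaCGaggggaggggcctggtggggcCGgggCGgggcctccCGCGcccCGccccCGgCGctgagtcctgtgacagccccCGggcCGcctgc
Among the matched members called higher with DAC, the median was 19 CpGs (37 members), beside 21 for those called lower (17 members) and 23.5 for those not called (50 members). For many of them the counted transcript begins elsewhere, so the window is not its own. Over the 68 members whose transcript begins within 250 bases of the RefSeq start, a limit chosen after seeing the data, the medians were 24.5 (24 members), 24 (8 members) and 24.5 (36 members). The retinoid receptor half-site AGGTCA, searched on both strands, was in none of the 5 printed windows. It was in 8 of the 104 members' windows (7.69%) and in 12.1% of all windows, and in 2 of the 13 windows of members called higher with ATRA. A match of these letters is not a binding site, and their lack in so short a window does not speak to distant sites.

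Of the carriers of choline and nucleosides, SLC44A1 and SLC29A3 rose with ATRA. SLC44A1, a choline transporter, had 34.0, 47.3 and 47.1 normalized reads in untreated cells, 55.1, 33.1 and 33.9 with DAC, 118, 138 and 119 with ATRA, and 106, 122 and 124 with both. The groups with ATRA did not overlap those without, and the rise with ATRA was 1.54 ± 0.197 (adjusted p = 2.11e-06). SLC29A3, a nucleoside transporter of lysosomes and mitochondria, rose by 0.66 with ATRA (adjusted p = 0.000382) and 0.71 with both. SLC28A3, a concentrative nucleoside transporter, had group means of 134, 116, 134 and 137 in untreated, DAC, ATRA and DAC + ATRA cells and was not called. Other members of the class were lower with the combination. SLC17A9, a vesicular nucleotide transporter measured in a transcript without a defined coding sequence, fell by 1.49, SLC22A4, an ergothioneine transporter, by 1.01, and SLC22A5, the carnitine transporter, by 0.90. SLC22A5, measured in a retained-intron transcript, was lower still with DAC alone, going from 218, 205 and 226 to 97.3, 64.3 and 107, a log2 fold change of -1.30 ± 0.177 (adjusted p = 1.22e-06). SLC22A15 fell with ATRA by 0.53 (adjusted p = 0.00916), a call lost in 10 of the 12 fits without a library, with adjusted p-values up to 0.0686, and kept only without DAC library 4 or 5. It was also lost with no filter on low values (adjusted p = 0.0448). SLC17A5, the lysosomal sialic acid exporter and the class's most counted member, rose by 0.51 with DAC and 0.43 with both, and SLC19A1, the reduced folate carrier, was not called.

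Amino acid carriers showed no common direction. SLC6A8, the creatine transporter, rose with DAC from 97.4, 107 and 80.3 to 591, 555 and 579.7, was at 86.6, 105 and 72.4 with ATRA, and at 379.7, 476 and 374 with both. The 2 groups with DAC stood above those without. The log2 fold change with DAC was 2.59 ± 0.149 (adjusted p = 1.86e-13). SLC6A8 has a near-identical pseudogene copy elsewhere in the genome, so how its reads were divided is uncertain. SLC6A9, the glycine transporter GLYT1, rose with ATRA from 16.5, 17.3 and 14.8 to 92.9, 86.5 and 59.9 (log2 fold change 2.21, adjusted p = 8.01e-08). SLC43A2, a leucine-preferring transporter, rose with DAC by 1.77 and with both by 2.42. SLC6A9 and SLC43A2 each had an untreated mean under 20.

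SLC38A1, a glutamine transporter, had group means of 21501 ± 1861 (SD, n = 3), 27857 ± 2192, 16730.1 ± 1873 and 26832 ± 2264 in untreated, DAC, ATRA and DAC + ATRA cells. Its changes of 0.37 with DAC, -0.36 with ATRA and 0.32 with both were small calls. They were lost in 3, 9 and 4 of the 12 fits without a library, untreated libraries 2 and 3 among them each time (adjusted p up to 0.0186, 0.0860 and 0.0376), and the calls with ATRA and with both were lost with DESeq2 (adjusted p = 0.0166 and 0.0110). The ATRA call was also lost with a pseudocount of 0.1, with 10 reads required in every library and with protein-coding transcripts only (adjusted p = 0.0116 to 0.0146), and that with both agents with edgeR (adjusted p = 0.0144) and scaling by library size (adjusted p = 0.0290). The values for SLC7A5, which with SLC3A2 forms the leucine exchanger LAT1, were 11092, 9909 and 8682 in untreated cells and 5414, 6142 and 4972 with both agents. Its log2 fold change of -0.84 missed the threshold (adjusted p = 0.0223), and with edgeR and DESeq2 the same comparison gave -0.88 (adjusted p = 6.89e-05) and -0.84 (adjusted p = 0.00612). SLC3A2, measured in a retained-intron transcript, fell by 0.71 with DAC and 0.96 with both. SLC38A2, a glutamine transporter induced by amino acid shortage, fell by 1.06 with both agents, and SLC7A1, a cationic amino acid transporter, by 0.50 from 6733, 6231 and 6063 to 4169, 4802 and 4514. SLC1A5 and SLC7A11, carriers of glutamine and cystine, differed from untreated cells by -0.28 and 0.35 with DAC + ATRA and were not called. SLC15A2, a peptide transporter, fell the most of this class with DAC, from 179, 131 and 137 to 60.5, 64.3 and 34.9 (log2 fold change -1.50 ± 0.197, adjusted p = 6.54e-07).

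Of the metal carriers, SLC39A10, a zinc importer, fell the most of all 124 carriers with DAC + ATRA. Its counted transcript has 2 exons (chr2:195657235-195658587) and no defined coding sequence. Its normalized reads were 117, 151 and 168 in untreated cells, 89.7, 60.4 and 59.8 with DAC, 61.2, 71.0 and 84.1 with ATRA, and 22.6, 17.9 and 32.1 with both. The single-agent groups overlapped each other, lay below untreated cells and above the combination. The log2 fold change was -2.56 ± 0.218 with both (adjusted p = 2.51e-10), -1.05 with DAC (adjusted p = 0.000295) and -1.0 with ATRA (adjusted p = 0.00223). The ATRA call was lost without untreated library 2 or 3 or ATRA library 7 (adjusted p up to 0.0235).

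SLC30A1, the zinc exporter of the plasma membrane, rose with DAC from 996, 784 and 712 to 1325, 2057 and 1703 (log2 fold change 1.02, adjusted p = 5.6e-05). SLC41A1, a magnesium transporter, rose with DAC by 1.19 and with both by 1.20. SLC11A2, the divalent metal transporter DMT1, fell with both by 1.02. SLC31A1, the copper importer, had means of 2129, 2165, 1948 and 2141 in untreated, DAC, ATRA and DAC + ATRA cells, and no contrast was called. For SLC39A8, a zinc and manganese importer, a decay-targeted transcript fell by 0.81 with both agents, while its most abundant protein-coding transcript differed by 0.23 (adjusted p = 0.589).

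Among carboxylate and lipid carriers, SLC16A10, which despite its family carries aromatic amino acids and thyroid hormone, fell stepwise. It had 200.4, 187 and 204 normalized reads in untreated cells, 125, 102 and 96.6 with DAC, 135, 114 and 102 with ATRA, and 65.1, 55.8 and 55.6 with both. The single agents overlapped each other, and the untreated and combination groups stood apart on either side. The log2 fold changes were -0.87 with DAC, -0.75 with ATRA and -1.73 ± 0.156 with both (adjusted p = 7.52e-10), and the ATRA call was lost without untreated library 3 (log2 fold change -0.73, adjusted p = 0.0102). SLC27A5, a bile acid and fatty acid ligase, measured in a decay-targeted transcript, fell by 0.99, 0.93 and 1.27, and its ATRA call was lost without untreated library 2 or 3 or ATRA library 7 or 8 (adjusted p up to 0.0506). SLC16A13, an orphan of the monocarboxylate family, rose by 0.74, 0.58 and 1.12. SLC16A3, the lactate exporter MCT4, rose with both agents from 153, 117 and 133 to 286, 280.0 and 241 in a retained-intron transcript, and there its change with DAC was -0.12. Its most abundant protein-coding transcript rose with DAC by 0.56 (adjusted p = 0.0013) and with ATRA by 0.61 (adjusted p = 0.00245). SLC27A4, a fatty acid transporter and the class's most counted member, was not called with any treatment.

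**Figure D3:**
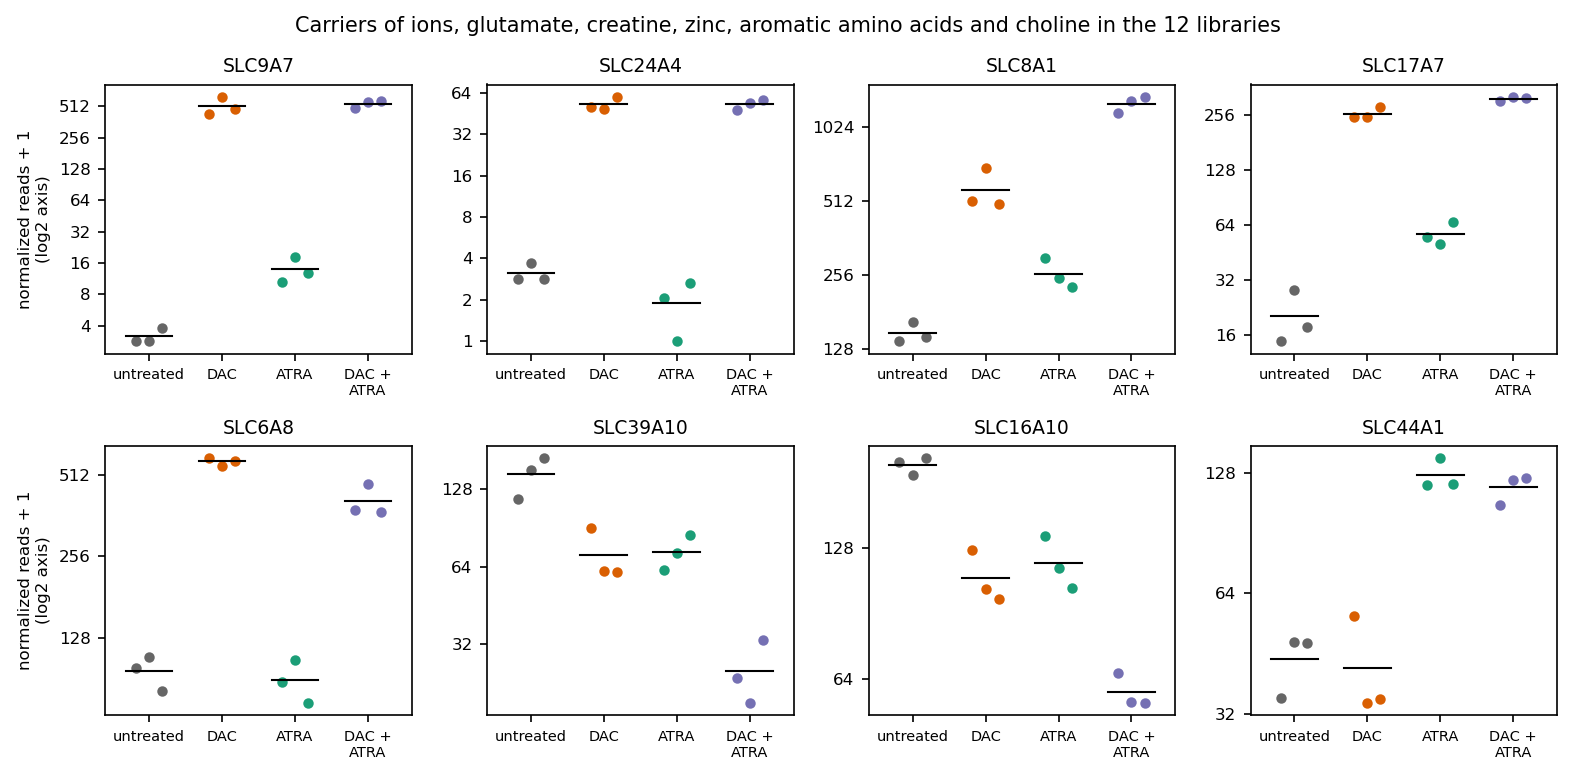
Normalized reads plus 1 (vertical axis, log2 scale) of 8 carriers outside the sugar class in the 12 libraries by group (horizontal axis). Points are libraries and bars group means. SLC9A7, SLC24A4, SLC17A7 and SLC6A8 are high in the 2 groups with DAC, SLC44A1 in the 2 with ATRA, SLC8A1 is highest with both, and SLC39A10 and SLC16A10 are lowest with both.

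The mitochondrial carriers split evenly. SLC25A35, an orphan carrier, rose with both agents from 104, 103 and 108 to 330.0, 318 and 331 (log2 fold change 1.63 ± 0.136, adjusted p = 1.71e-10), and was at 175, 161 and 195 with DAC. SLC25A39, needed for glutathione import, rose by 1.10 with DAC and 1.49 with both, and SLC25A42, the coenzyme A carrier, by 1.15 and 1.03. On the other side, SLC25A29, a basic amino acid carrier, fell from 389.7, 447 and 463 to 174, 158 and 154 with both agents (log2 fold change -1.41, adjusted p = 2.7e-08). SLC25A10, the dicarboxylate carrier, measured in a decay-targeted transcript, fell by 0.82 with DAC and 1.41 with both, the DAC call being lost without untreated library 1 or 2 or DAC library 5 (adjusted p up to 0.0238). SLC25A5, an ADP/ATP carrier with many processed pseudogenes and so an uncertain count, fell by 0.66 with both. SLC25A3, the phosphate carrier, and SLC25A23, a calcium-dependent carrier with the class's highest count, were not called with any treatment. SLC25A45, measured in a retained-intron transcript, was the only carrier called with ATRA alone and with neither of the other treatments. It was at 17.5, 20.0 and 15.7 in untreated cells, a mean under 20, and 40.1, 40.1 and 53.3 with ATRA (log2 fold change 1.27, adjusted p = 0.00036). It is 1 of 16 carriers that were added to the description after their values were seen, with SLC5A3, SLC5A4, SLC37A1, SLC8A1, SLC26A4, SLC28A3, SLC29A3, SLC44A1, SLC6A8, SLC7A1, SLC30A1, SLC25A29, SLC25A39, SLC25A42 and SLC35C1.

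Nucleotide sugar carriers supply the Golgi for glycosylation. SLC35E4, an orphan of this family, rose with DAC from 58.8, 57.3 and 48.0 to 188, 208 and 201 (log2 fold change 1.85, adjusted p = 9.85e-10) and was lower with ATRA at 34.8, 36.4 and 29.1 (-0.69, adjusted p = 0.00529). The ATRA call was lost with edgeR (adjusted p = 0.0121), with DESeq2 (adjusted p = 0.0226), with no filter on low values (adjusted p = 0.0222) and without untreated library 1 or 2 or ATRA library 7 or 9 (adjusted p up to 0.0309). SLC35C1, the GDP-fucose transporter, rose by 0.77 with DAC and 1.19 with both. SLC35B4, which carries UDP-xylose and UDP-N-acetylglucosamine, fell by 0.41 with both, a call lost without DAC + ATRA library 10 (log2 fold change -0.33, adjusted p = 0.0148).

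To ask whether each agent acted on the carriers in the same way in the presence of the other, comparisons were used that share no library. DAC was compared with untreated cells and, separately, DAC + ATRA with ATRA. The latter called 50 carriers, 30 higher and 20 lower, where 29.4% of all tested transcripts were called (19.1% higher, 10.2% lower). Of the 63 carriers called without ATRA, 39 were also called with it, which is 61.9% of the first list and 78.0% of the second, and all 39 had the same sign. Over all tested transcripts these shares were 65.8% and 75%, and 99.8% of those called in both had the same sign, so the carriers were near the background.

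ATRA against untreated cells and DAC + ATRA against DAC likewise shared no library. The second called 19 carriers, 11 higher and 8 lower, against a background of 8.77% (5.18% higher, 3.59% lower). Without ATRA library 9, which enters this comparison only through the shared estimate of the spread, 29 were called, 16 higher and 13 lower. Of the 21 carriers called without DAC, 9 were also called with it, or 42.9% of the first list and 47.4% of the second, all with the same sign, beside 54.0% and 42.9% over all tested transcripts, where 99.0% of those called in both had the same sign. The DAC x ATRA interaction was called for 4 carriers, 1 above 0 and 3 below, against 1.51% of all transcripts (0.527% above, 0.986% below). SLC9A7, SLC17A7 and SLC2A5 were below the sum of the single-agent log2 changes and SLC45A4 above it.

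**Figure D4:**
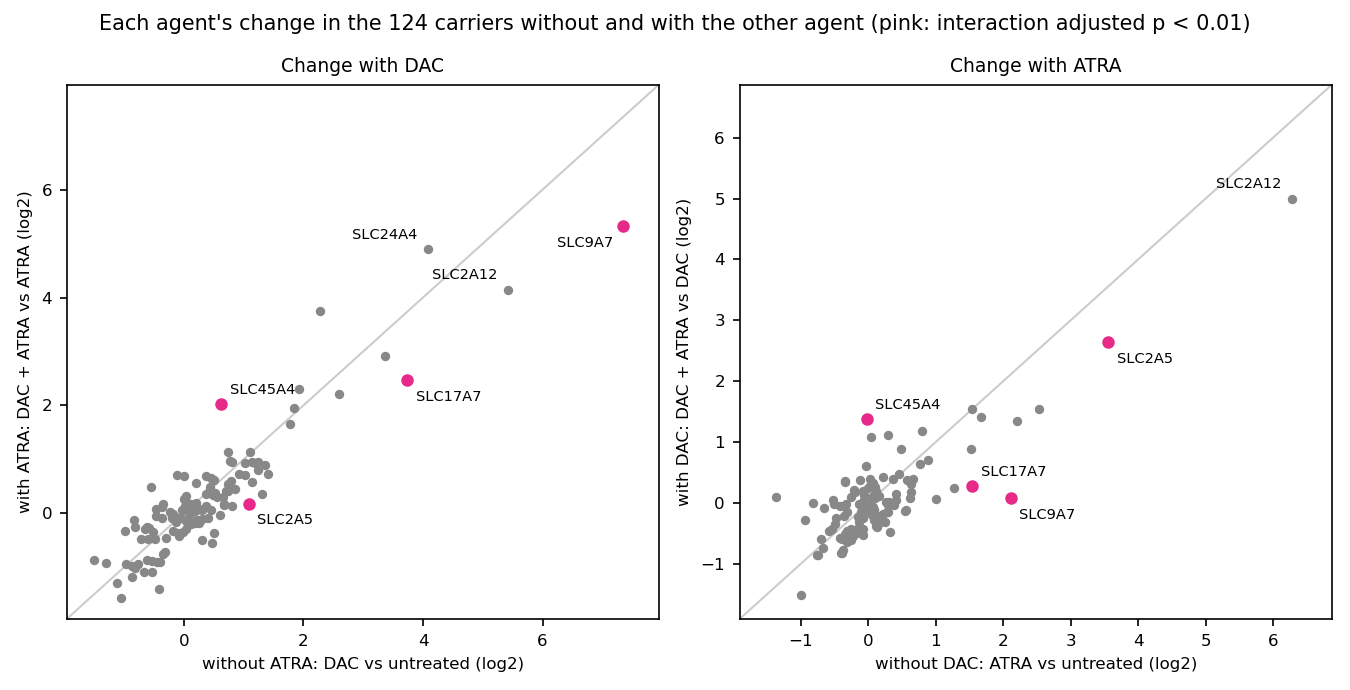
Log2 fold change of each of the 124 carriers with DAC (left) and with ATRA (right), without the other agent on the horizontal axis and with it on the vertical axis. Each point is a carrier, the line marks equal change, and pink points are the 4 carriers with a called interaction. SLC45A4 lies above the line in both panels, and SLC2A5, SLC9A7 and SLC17A7 lie below it.

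Related genes outside the symbol rule also went both ways. Of 37 solute carriers that go by other names, 27 were tested, and with DAC + ATRA 5 were higher and 9 lower, beside 41.6% of all tested transcripts called (25.5% higher, 16.1% lower). MFSD12, a lysosomal cysteine importer, rose by 2.02 (adjusted p = 2.13e-09), and SPNS3 fell by 1.81. With ATRA 1 was higher, the lysosomal cholesterol transporter NPC1 (0.59), and 1 lower, the organic anion transporter SLCO4C1 (-0.82), beside 5.11% and 1.87% of all tested transcripts. Of 20 partners and regulators of carriers, 12 were tested, and with DAC + ATRA 4 were higher and 1 lower, beside the same background. SLC51B, a subunit of the organic solute transporter, had means of 0.611, 1.01 and 1.99 normalized reads in untreated, DAC and ATRA cells and 21.6 with both, and was tested only because that last group was high. NEDD4L, a ubiquitin ligase that removes carriers from the membrane, fell by 0.67. TXNIP, which restrains glucose uptake, rose by 0.50 with DAC and 0.82 with both. ARRDC4, its relative, fell by 1.04 with ATRA (adjusted p = 9.39e-05).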

How the data were processed

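RNA of U937 cells was sequenced after depletion of ribosomal RNA, in 12 libraries. Per the submitters' processing notes the authors used FastQC, STAR, HTSeq and DESeq2 with build hg38; versions, annotation release and strand setting are not given in the sources used here. The deposited signal values are reads per transcript divided by 1 size factor per library, and were whole multiples of 1 read for 100% of values (tolerance 0.001 reads), so reads could be recovered. Members and lists were chosen with earlier results of these data known, and classes were assigned by family.

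Transcripts with at least 10 normalized reads in at least 3 libraries (19373) were tested on log2(value + 1) with limma 3.58.1 (R 4.3.3), all 12 libraries in 1 fit, with Benjamini-Hochberg adjustment and a threshold of 0.01. A fold change on this scale understates that of low transcripts. DESeq2 1.42.0, edgeR 4.0.16 with TMM scaling, other scalings, filters and pseudocounts, and leaving out each library were alternatives. The scripts were tested on simulated data. Named members were those with the largest and smallest called changes in each comparison and class, the most counted of each class, a fixed list, and those nearest the limit of 20. Transcript types are from GENCODE 44, which matched 118 of the 124 transcripts, and promoters from RefSeq. Some genes are not reported here.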

Additional observations from a re-analysis of the deposited data

Results flagged for a closer look

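The DAC x ATRA interaction, the difference between the log2 change with one agent in the presence and absence of the other, passed the threshold (limma, adjusted p under 0.01) for 4 carriers. It was -0.91 for SLC2A5, -2.03 for SLC9A7, -1.27 for SLC17A7 and 1.39 for SLC45A4. SLC17A7 lost the call in 9 of the 12 fits without a library (adjusted p up to 0.0278). It also lost it with scaling by library size (adjusted p = 0.0153), with a pseudocount of 0.1 (adjusted p = 0.0110) and with edgeR without DAC library 6 (adjusted p = 0.0153). For SLC9A7 the untreated level rests on 7 reads in all.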

How the results depend on the processing

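No paired analysis was possible because the columns carry only the group and a running number. Counts of called members and their medians stayed within the limits set for them (1.5 times the count, 1 SD of the median) in 111 of 122 alternatives and 106 of 108 fits without a library. For DAC + ATRA against DAC, 36 members were called at a threshold of 0.05, and 15 to 29 without a library. The median with DAC was 0.11 with edgeR, 0.0467 with scaling by library size and 0.0777 over members with a mean of at least 50. With ATRA it was -0.0733 with scaling by library size and -0.0351 to 0.0601 without a library. With DAC + ATRA it was 0.0384 with scaling by library size, 0.27 with protein-coding transcripts only and 0.0808 with a mean of at least 50. Settings chosen after seeing the data gave 0.0890 with DAC for edgeR without DAC library 6, and 0.25 with DAC and 0.27 with DAC + ATRA over the 95 members with a protein-coding transcript. With protein-coding transcripts only, another transcript stood for SLC16A3, which was at 0.56 with DAC, and for SLC39A8, at 0.23 with DAC + ATRA. Of 2147 values of members selected by the naming rule or added to it under alternatives, 2097 kept direction and side of the threshold, 28 lost the call, 20 gained it and 2 reversed. Of 2940 without a library, 88 lost it, 16 gained it and 0 reversed. Beyond the change of transcript, the cause was not tested. For members near 20 normalized reads, depth limits what can be seen.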
